A study of Homo sapiens with 4 samples.

Results

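DKK1 and 9 further genes of the WNT pathway were followed across parental and cisplatin-resistant head and neck squamous cell carcinoma (HNSCC) cells. The 10 genes are the secreted antagonists DKK1, DKK3 and SFRP1, the ligands WNT5A, WNT7B and WNT10A, the nuclear factors TCF7 and LEF1, and the feedback genes AXIN2 and NKD1. They were selected by name with earlier results of these arrays known, and the values that guided the selection were the differences between each resistant array and its parental array. Those differences are therefore given as a description, without a test. All 10 have a probe among the 43317 gene names on the arrays, and 15 probes carry their names.

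HN4, HN30, HN4/DDP and HN30/DDP were each measured on 1 expression array, 4 in all. The parental lines HN4 and HN30 are long-established HNSCC lines of human origin, grown in DMEM with 10% FBS. HN4/DDP and HN30/DDP, labelled HN4_CR and HN30_CR, were derived from them by raising the dose of cisplatin, a platinum compound that crosslinks DNA, and for the arrays were held for 48 h in medium with 20 μM of it. The paper states that both resistant lines were also maintained at this dose. Each resistant line was compared with its own parental line. The resistant cells were in the drug and the parental cells were not. Lasting resistance and the response to cisplatin, over 48 h or longer, therefore cannot be told apart. With 1 array per condition no spread between samples is known.

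WNT ligands are secreted glycoproteins that bind Frizzled receptors together with the co-receptors LRP5 or LRP6. In the canonical branch this keeps β-catenin from being degraded, and β-catenin then works with TCF and LEF proteins on target genes such as AXIN2, NKD1 and LEF1 itself. DKK1 blocks the co-receptors and SFRP proteins bind the ligands, while WNT5A is best known for branches that do not need β-catenin. The pathway maintains progenitor cells of stratified epithelia, and DKK1 is often abundant in squamous carcinoma cells.

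Levels are log2 processed intensities relative to the 75th percentile of the array, so that 0 is the brightness of the probe at that percentile. It corresponded to 494 intensity units in HN4 and 496 in HN4/DDP, and 444 in HN30 and 480 in HN30/DDP. The scanner software marked 57.2%, 59.0%, 55.3% and 63.6% of spots as well above background on these arrays, in the same order. A gene without that mark is called dim, and its fold is given only as a bound. Counts past 2 use the measured signal even where 1 array is dim, so a counted gene can have a bound under 4-fold, and such genes are pointed out. The scanner SD printed beside a difference is the error the software assigned to the spots, and it holds no variation between cultures. No spot was saturated.

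All 8 markers of squamous epithelium were well above background on every array. Their summed level, on a linear scale where 1 is the 75th percentile, was 156 in HN4 and 178 in HN4/DDP, and 142 in HN30 and 93.1 in HN30/DDP. Most of it was SFN, which differed by 0.15 and -0.96 in the HN4 and HN30 pairs. Without SFN the sums were 29.9 and 38.4, and 20.5 and 30.4, and single markers went other ways, with KRT5 16.6-fold lower in HN4/DDP. Of 6 fibroblast markers COL1A1 and PDGFRB were measured on all arrays, while COL1A2, COL3A1, DCN and LUM were dim on all 4. The fibroblast sum was 0.394, 1.03, 0.223 and 0.771 in that array order, and without COL1A1, the brightest, it was 0.12, 0.11, 0.11 and 0.17. The 4 endothelial markers summed to 0.265, 0.317, 0.224 and 0.285 in the same order, led by CDH5 on the parental arrays and VWF on the resistant ones, with KDR dim throughout. Under these sums the markers went different ways. VWF was at least 5.37-fold higher in HN4/DDP and 2.81-fold higher in HN30/DDP, while CDH5 differed by -0.62 and -0.59. PECAM1 was at least 2.05-fold lower in HN4/DDP and at least 1.64-fold higher in HN30/DDP. Any part of other cells in the differences was not tested. In such bulk samples fewer cells that express a gene and less RNA per cell cannot be told apart.

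Of the 10 genes, 7 were well above background on all 4 arrays, SFRP1 on 3, and AXIN2 and LEF1 on none. In HN4/DDP against HN4, 3 of the 8 members that could be lower were lower by more than 2 (log2), namely DKK1, WNT5A and WNT10A, and 0 of 8 were higher. Over all genes 2.38% of those well above background in HN4 were lower and 3.8% of those well above background in HN4/DDP were higher by that rule. In HN30/DDP against HN30, DKK3 and WNT5A were higher by more than 2, 2 of the 8 that could be, and DKK1 was lower, 1 of 7. The shares over all genes were 8.58% higher and 3.25% lower. Since these contrasts guided the choice of the 10 genes, nothing is read from their counts. DKK1 was the member that was lower past 2 in both lines, and WNT5A was past 2 in opposite directions. Over all 43317 gene names 35 were lower past 2 in both lines, 298 were higher in both and 72 went opposite ways.

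**Figure D1:**
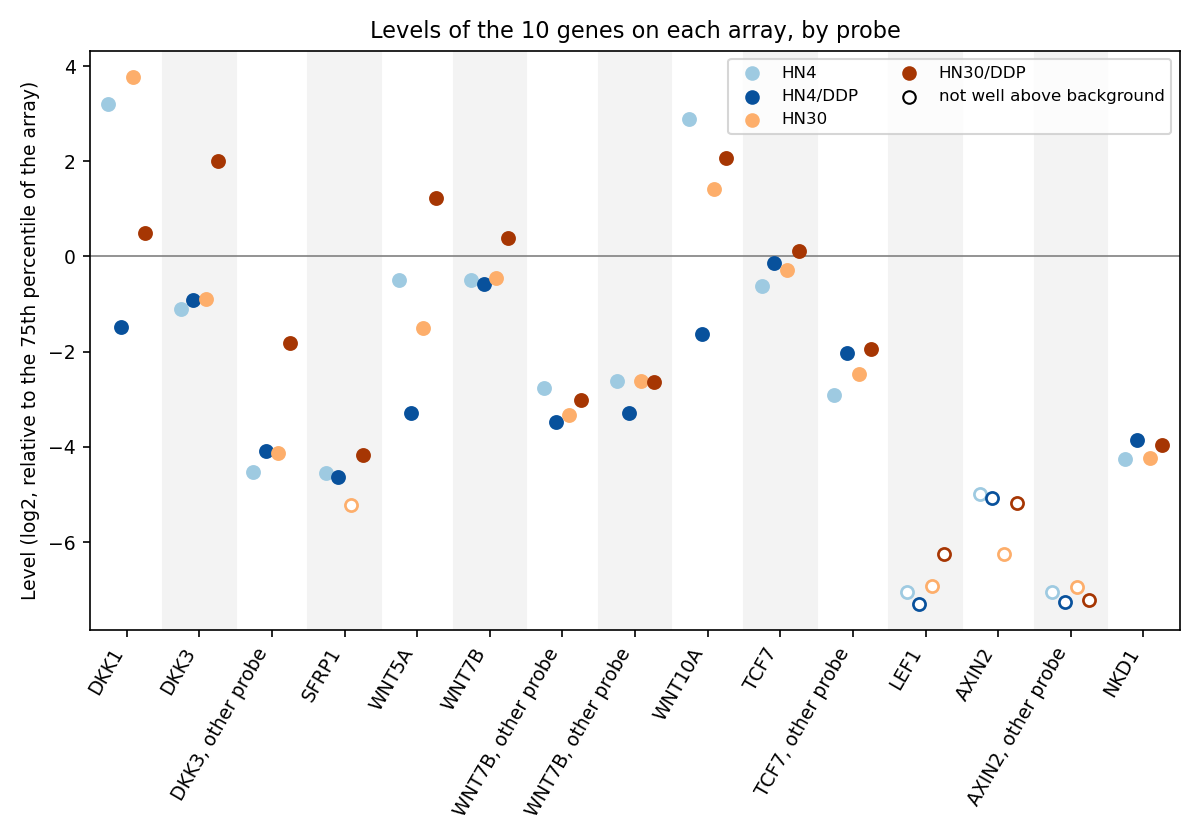
Level of each of the 15 probes of the 10 genes on the 4 arrays (vertical axis, log2 relative to the 75th percentile of the array), with 1 point per array. Open circles are not well above background. DKK1 stood at 3.20 and 3.77 on the parental arrays and at -1.49 and 0.50 on the resistant ones, while both AXIN2 probes and LEF1 were dim everywhere.

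DKK1 was bright in both parental lines and lower in each resistant line than in its parental line. Its level was 3.20 in HN4 and -1.49 in HN4/DDP, and 3.77 in HN30 and 0.50 in HN30/DDP, and it was well above background on each array. Both resistant levels were below both parental levels. How many of all genes separate in this way was not counted, and DKK1 was chosen with these contrasts known. The difference was -4.69 in the HN4 pair (scanner SD 0.21), which is 25.8-fold lower, and -3.27 in the HN30 pair (scanner SD 0.20), which is 9.65-fold lower. DKK1 is measured by 1 probe, at chr10:54076687-54076746 of hg19 on the plus strand, beginning at base 1074 of the transcript. No second probe checks it.

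Of the 10 members, 5 had an entry in the RefSeq promoter table (GRCh38.p14), with 7 promoters of 300 bases from 250 before to 50 after the start of the gene. The promoters of DKK1, WNT10A and WNT5A are shown because these were the 3 members past 2 in HN4/DDP, and each is written 5′ to 3′ on the strand of its gene. They were searched on both strands for CTTTGA, a form of the core bound by TCF and LEF proteins. They were also searched for TGACG, a core bound by CREB proteins. Other forms of these cores were not searched. Matches of these motifs could share the letters TGA, but none did here, as no printed promoter held TGACG. Capitals mark the matches, all of CTTTGA, which reads TCAAAG where it lies on the opposite strand. The DKK1 promoter lies at chr10:52314031-52314330 (plus strand), that of WNT10A at chr2:218880602-218880901 (plus strand), and those of WNT5A at chr3:55487257-55487556 and chr3:55481349-55481648 (minus strand).
DKK1: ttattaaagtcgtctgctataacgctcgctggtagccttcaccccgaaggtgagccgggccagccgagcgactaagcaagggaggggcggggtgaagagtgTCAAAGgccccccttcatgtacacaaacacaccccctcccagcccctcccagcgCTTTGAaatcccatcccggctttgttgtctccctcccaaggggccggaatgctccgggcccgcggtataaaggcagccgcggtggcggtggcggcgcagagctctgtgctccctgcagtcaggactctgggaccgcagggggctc
WNT10A: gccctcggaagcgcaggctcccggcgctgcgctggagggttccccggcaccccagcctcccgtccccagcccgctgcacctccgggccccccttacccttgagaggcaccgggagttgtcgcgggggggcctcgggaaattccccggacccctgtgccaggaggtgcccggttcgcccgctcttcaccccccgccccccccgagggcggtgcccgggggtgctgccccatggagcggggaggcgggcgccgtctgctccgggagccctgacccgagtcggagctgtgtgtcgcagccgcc
WNT5A, promoter 1: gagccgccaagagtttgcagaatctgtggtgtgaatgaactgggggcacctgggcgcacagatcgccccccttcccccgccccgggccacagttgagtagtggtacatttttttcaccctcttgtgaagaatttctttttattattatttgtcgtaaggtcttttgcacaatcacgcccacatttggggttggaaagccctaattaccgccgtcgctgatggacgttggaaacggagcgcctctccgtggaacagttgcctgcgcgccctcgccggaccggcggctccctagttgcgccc
WNT5A, promoter 2: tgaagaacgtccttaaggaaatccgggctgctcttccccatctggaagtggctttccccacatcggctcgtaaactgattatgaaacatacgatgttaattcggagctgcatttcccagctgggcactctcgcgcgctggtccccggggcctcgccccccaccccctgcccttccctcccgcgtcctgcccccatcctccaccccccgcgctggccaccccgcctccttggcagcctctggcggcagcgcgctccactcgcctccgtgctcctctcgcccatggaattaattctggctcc

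The DKK1 promoter held CTTTGA at 2 places, beginning 95 bases before the start on the plus strand and 149 bases before it on the opposite strand. None of the other 6 promoters of members, which belong to LEF1, TCF7, WNT5A and WNT10A, held it, and none of the 7 held TGACG. Among all 35116 promoters of the same length 12.92% held CTTTGA and 24.55% held TGACG. G and C made up 63.7% of the DKK1 promoter, 76.7% of that of WNT10A, and 56.3% and 63.7% of those of WNT5A. A match describes the letters of this window and not a bound site, and no binding was measured.

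The genes whose profile was most like that of DKK1 were sought among the 22147 other genes well above background on all 4 arrays. Each profile was centred on its own mean, and likeness was the root mean square distance over the 4 arrays. The nearest was INHBA, the subunit of activin A, at a distance of 0.40. It was followed by the neutrophil-attracting chemokine CXCL5 at 0.48, the interleukin 7 receptor chain IL7R at 0.53, the long non-coding RNA LINC01468 at 0.53 and the basal keratin KRT5 at 0.53. All 5 were lower in both resistant lines, which follows from picking profiles close to that of DKK1 and is not a separate result.

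INHBA had levels of 5.94 in HN4 and 1.1 in HN4/DDP, and 6.87 in HN30 and 4.11 in HN30/DDP. CXCL5 had 3.42, -0.51, 3.41 and 0.52 in that order, and IL7R had 3.69, -1.27, 3.97 and 1.99. KRT5 had 2.79, -1.26, 2.84 and 0.91. The difference in the HN4 pair was larger in size than that in the HN30 pair for each of them, as it was for DKK1. The ranking by likeness favours such genes. INHBA was at -4.85 and -2.76, CXCL5 at -3.93 and -2.89, and IL7R at -4.96 and -1.98. The pathway gene nearest to DKK1 was WNT10A, at rank 216 with a distance of 1.39, followed by CD44 at rank 437 and ROR1 at rank 507. The ranking over 4 arrays is a description.

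**Figure D2:**
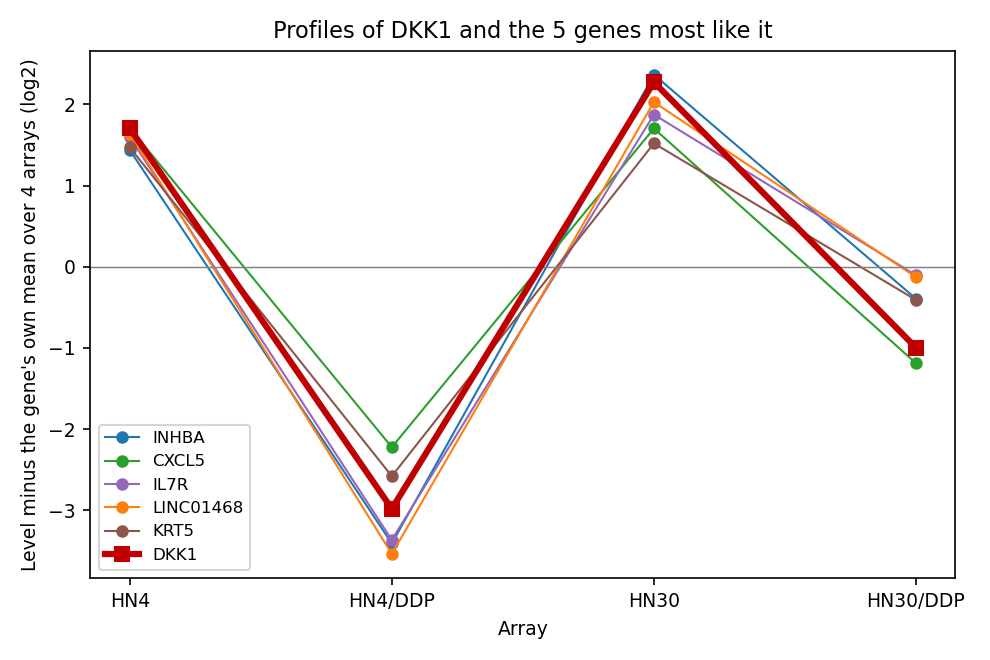
Level of DKK1 and of the 5 genes nearest to it on each array, minus the gene's own mean over the 4 arrays (vertical axis, log2). Each line joins the 4 values of a gene, and all 6 genes were lower on each resistant array than on its parental array. The 5 genes were picked for likeness to DKK1 on these arrays.

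LINC01468, at rank 4 in likeness, is also a neighbour of DKK1 on chromosome 10. RefSeq names it LNCAROD, a long non-coding RNA named for activating DKK1. Its brightest probe, 134.4 kb from the DKK1 probe in hg19, had levels of 1.36 in HN4 and -3.81 in HN4/DDP, and 1.75 in HN30 and -0.40 in HN30/DDP. The differences were -5.17 (scanner SD 0.24) and -2.16 (scanner SD 0.20), or 36.1-fold and 4.46-fold lower. The other LINC01468 probes, both 134.2 kb from DKK1, were dim in HN4/DDP, which bounds their difference there at no less than 23.1-fold and 18.6-fold lower. In the HN30 pair they were 9.1-fold and 8.27-fold lower. All 3 probes were thus lower in both resistant lines.

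Within 2 Mb of the DKK1 probe on either side lay 35 probes of 25 other gene names, of which 8 were measured above background on 1 or more arrays. Apart from LINC01468, A1CF was the only one of these with a difference past 2. A1CF, a cofactor of APOB mRNA editing, was measured in HN30 alone, at -2.53, and was at least 5.31-fold lower in HN30/DDP. CSTF2T, a factor of mRNA 3′ end processing 621.2 kb away, had differences of -0.75 and -0.32. SGMS1-AS1, an antisense RNA, had -0.82 and 0.34. The unnamed transcript 72.4 kb away, between DKK1 and LINC01468, differed by 0.09 and 0.06. Its probe was very bright, at 8.13 in HN4 and 8.22 in HN4/DDP, and 8.34 in HN30 and 8.39 in HN30/DDP. Whether that probe reads this transcript alone was not tested. Another unnamed transcript, 1609.4 kb away on the other side, differed by 0.73 and 0.21. The last of the 8, PCDH15 and lnc-MBL2-3, were each measured on 1 array. PCDH15 reached -4.37 in HN4 and lnc-MBL2-3 reached -4.40 in HN30/DDP. The other 17 names, among them PRKG1 and MBL2, were dim on all arrays.

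**Figure D3:**
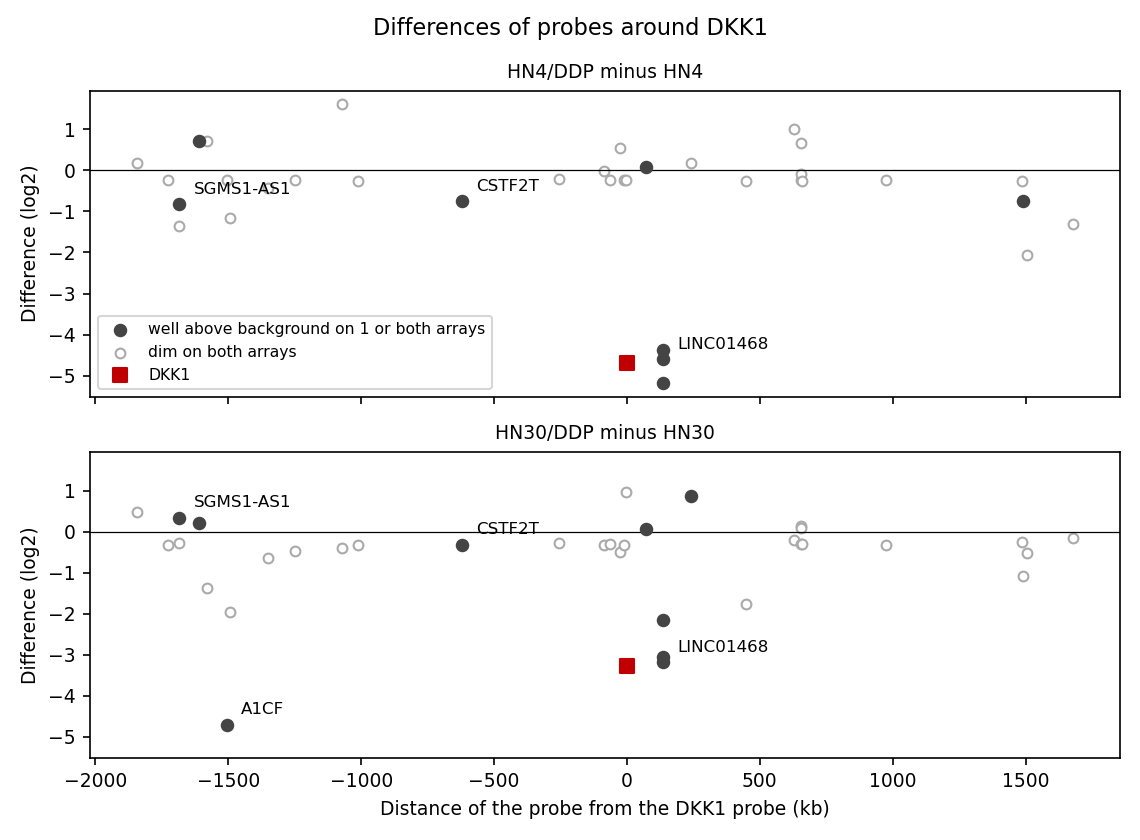
Difference of every probe within 2 Mb of the DKK1 probe (vertical axis, log2) against its distance from that probe (horizontal axis, kb), for the HN4 pair above and the HN30 pair below. Filled points were well above background on 1 or both arrays of the pair. The LINC01468 probes lie beside DKK1 in both panels, and A1CF stands low in the HN30 pair.

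DKK3, a relative of DKK1 whose effect on WNT signalling depends on the cell, was higher in HN30/DDP alone. Its brightest probe had levels of -1.10 in HN4 and -0.91 in HN4/DDP, and -0.89 in HN30 and 2.02 in HN30/DDP. HN4/DDP and HN30 were next to each other and differed by less than the scanner SD. The difference was 0.19 in the HN4 pair (scanner SD 0.21) and 2.91 in the HN30 pair (scanner SD 0.21), which is 7.52-fold higher. A second probe, 1248 bases nearer to the start of the same transcript, gave 0.45 (scanner SD 0.36) and 2.30 (scanner SD 0.29). Both probes thus placed HN30/DDP highest.

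SFRP1, which binds WNT ligands outside the cell, was close to background. Its probe is printed 10 times on each array, so that the spread between spots is known. The mean level was -4.56 in HN4 (SD 0.29 over 10 spots), -4.63 in HN4/DDP (SD 0.20 over 8 spots), -5.22 in HN30 (SD 0.65 over 10 spots) and -4.17 in HN30/DDP (SD 0.32 over 10 spots). In HN30 2 of the 10 spots were well above background, so the gene counts as dim there. HN4 and HN4/DDP differed by -0.07, less than the SD between spots. In the HN30 pair SFRP1 was at least 1.37-fold higher, but in the deposited series table that difference was -0.16.

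Of the 15 secreted antagonists on the list, 7 were dim on all arrays, among them DKK2, SFRP2 and WIF1. The rule for naming further genes was a difference past 1 in the same direction in both lines or past 2 in 1 line. By it FRZB, a Frizzled-related ligand binder, was at least 1.52-fold higher in HN4/DDP and at least 2.9-fold higher in HN30/DDP, and dim in both parental lines. SOST, an antagonist that binds the co-receptors, was at least 1.6-fold and 1.94-fold higher. NOTUM, an enzyme that strips the lipid from WNT ligands, was measured in HN30/DDP alone, at least 3.61-fold higher, while its other probe was dim on all arrays. By measured signal 3 of 8 antagonists counted as higher past 2 in HN30/DDP, but the bounds of FRZB and NOTUM are under 4-fold, which leaves DKK3, 1 of 8, beside 5.21% of all genes by that bound. In HN4/DDP 1 of 6 counted as higher, SOST, whose bound is under 4-fold as well, which leaves 0 of 6 beside 2.32%. DKK1 was the 1 lower antagonist, of 3 that could be in the HN30 pair and of 4 in the HN4 pair. By measured signal the shares over all genes were 8.58% higher and 3.25% lower in HN30/DDP, and 3.8% and 2.38% in HN4/DDP.

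WNT5A, the ligand of β-catenin-independent branches, was lower in HN4/DDP and higher in HN30/DDP. Its level was -0.49 in HN4 and -3.28 in HN4/DDP, and -1.50 in HN30 and 1.23 in HN30/DDP. The resistant arrays thus held both the lowest and the highest level. The difference was -2.79 in the HN4 pair (scanner SD 0.22), 6.9-fold lower, and 2.73 in the HN30 pair (scanner SD 0.21), 6.63-fold higher. With normexp background correction the HN4 difference was -1.90, no longer past 2. WNT5A has 1 probe, at chr3:55499800-55499859 of hg19 on the minus strand.

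WNT10A, a canonical ligand of skin and its appendages, was lower in HN4/DDP. Its level was 2.89 in HN4 and -1.63 in HN4/DDP, and 1.42 in HN30 and 2.08 in HN30/DDP, so that HN4/DDP stood alone below the other 3 arrays. The difference was -4.52 in the HN4 pair (scanner SD 0.21), 23.0-fold lower, and 0.66 in the HN30 pair (scanner SD 0.20). Its only probe is at chr2:219758393-219758452 of hg19 on the plus strand. Whether the lines differ in their response was not tested.

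WNT7B, a canonical ligand of epithelia, has 3 probes, and the brightest had levels of -0.49 in HN4 and -0.59 in HN4/DDP, and -0.45 in HN30 and 0.38 in HN30/DDP. HN30/DDP was the highest, and the other 3 arrays differed from each other by less than the scanner SD of 0.21. The differences were -0.09 (scanner SD 0.21) and 0.83 (scanner SD 0.20). The other probes gave -0.71 and 0.32, and -0.68 and -0.02, so the probes did not agree on which line differed.

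Among the 19 WNT ligands, 14 were measured above background on 1 or more arrays and 5 were dim on all. WNT4, WNT6 and WNT11 were much higher in HN30/DDP than in HN30. WNT4 had levels of -2.21 in HN4 and -2.12 in HN4/DDP, and -3.48 in HN30 and 1.51 in HN30/DDP, a difference of 4.98 and 31.7-fold higher in the HN30 pair. Its other probe gave -0.52 there, so the 2 probes of WNT4 disagreed. WNT6 had -3.87, -4.91, -4.04 and 0.72 in that order, with differences of -1.04 and 4.76, the latter 27.2-fold higher. WNT11, a ligand of the planar polarity branch, was dim in both parental lines and at least 11.2-fold higher in HN30/DDP, where its level was -1.14. In all, 4 of 14 ligands were higher past 2 in HN30/DDP and 0 of 12 lower, where 8.58% and 3.25% of all genes were. In HN4/DDP 0 of 13 were higher and 2 of 12 lower, where 3.8% and 2.38% of all genes were. The 2 lower and 1 of the 4 higher are members.

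Of the 19 receptors, which comprise the Frizzled receptors, LRP5, LRP6, the ROR, RYK and PTK7 receptors, KREMEN1, KREMEN2 and CKAP4, 18 were measured above background on 1 or more arrays. In HN4/DDP none was past 2 in either direction, 0 of 17 higher and 0 of 16 lower, beside 3.8% and 2.38% of all genes. In HN30/DDP 2 of 18 counted as higher by measured signal and 0 of 16 as lower, beside 8.58% and 3.25%. FZD4, a Frizzled receptor that also binds norrin, had levels of -0.10, -0.30, -0.68 and 1.70 in the order HN4, HN4/DDP, HN30 and HN30/DDP, a difference of 2.37 in the HN30 pair. ROR2, a WNT5A receptor, was the other, but it was dim on the remaining arrays and allows no fold, which leaves 1 of 18, beside 5.21% of all genes whose measured difference or bound is past 4-fold.

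KREMEN2, which binds DKK1 and takes LRP6 off the surface, was higher in both resistant lines, with levels of 2.05, 3.30, 2.16 and 3.97. Its differences were 1.25 and 1.80, or 2.38-fold and 3.49-fold. ROR1, another WNT5A receptor, was lower in both, with levels of 0.08, -1.05, 0.37 and -0.82 and differences of -1.13 and -1.19. A second ROR1 probe gave -1.41 and -1.08, and the last gave -0.39 and -0.14. LRP6, the co-receptor that DKK1 blocks, differed by -0.18 and 0.23. CKAP4, also known as a DKK1 receptor, differed by -1.06 and -0.77.

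R-spondins act through LGR receptors to hold back the ligases RNF43 and ZNRF3, which take Frizzled off the surface. Of the 9 genes on this list 6 were measured on at least 1 array. RSPO4 was at -2.95 in HN4 and dim in HN4/DDP, at least 4.12-fold lower, while in the HN30 pair it was at -3.17 and -1.51, a difference of 1.66. RSPO1, RSPO2 and LGR5 were dim on all arrays. Of this list 1 of 6 was lower and 0 of 5 higher past 2 in HN4/DDP, beside 2.38% and 3.8% of all genes. In HN30/DDP 0 of 6 were past 2 in either direction, beside 3.25% lower and 8.58% higher. The secretion factor PORCN differed by 0.04 in the HN4 pair and -0.37 in the HN30 pair. WLS gave -0.12 and -1.33 on its brightest probe, but 0.56 and -0.51 on a second and 1.48 and 1.3 on the last, so its probes disagree in sign.

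Of the 19 cytoplasmic transducers 18 had a probe under their name, and CSNK1E is named only. β-catenin itself, CTNNB1, had levels of 4.29 in HN4 and 4.23 in HN4/DDP, and 4.52 in HN30 and 3.85 in HN30/DDP, with differences of -0.06 and -0.67. Its second probe gave 0.17 and -1.04. In HN4/DDP none of this list was past 2, 0 of 16 higher and 0 of 15 lower, beside 3.8% and 2.38% of all genes. In HN30/DDP DACT3 and APC2 were higher, 2 of 16, and 0 of 14 were lower, beside 8.58% and 3.25%. DACT3, which binds the Dishevelled proteins, was dim in both parental lines, at least 2.25-fold higher in HN4/DDP and at least 31.9-fold higher in HN30/DDP, where its level was 0.37. APC2, a relative of the scaffold APC, was at least 4.73-fold higher in HN30/DDP.

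The 13 nuclear factors include the members TCF7 and LEF1. TCF7 had levels of -0.62 in HN4 and -0.14 in HN4/DDP, and -0.28 in HN30 and 0.12 in HN30/DDP. Its differences were 0.48 and 0.40 (scanner SD 0.20 each), and HN4/DDP and HN30 lay within 1 scanner SD of each other. The second TCF7 probe gave 0.87 and 0.53. With median scaling the HN30 difference was -0.018. LEF1 was dim on all arrays, with measured values between -7.29 and -6.25, and allows no fold.

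TCF7L1, a family member that mostly represses, went opposite ways. It was at -3.16 in HN4 and at least 3.55-fold lower in HN4/DDP, where it was dim, and dim in HN30 and at least 9.12-fold higher in HN30/DDP, at -1.44. TLE2, a co-repressor that TCF proteins recruit, had levels of 0.62, 1.21, 0.42 and 2.60, with differences of 0.58 and 2.18. TLE4, of the same family, had -1.51, 0.75, -0.12 and 0.21, with differences of 2.25 and 0.33 on the brightest of its 6 probes. The next gave 2.95 and 0.75, and another was at least 5.99-fold higher in HN4/DDP and at least 5.42-fold higher in HN30/DDP. Of the remaining 3, 1 was dim on all arrays, and the others were dim in HN4, with 1 at least 2.64-fold higher in HN4/DDP, and gave -0.41 and 0.54 in the HN30 pair. By measured signal 1 of 11 factors was higher and 1 of 12 lower in HN4/DDP, beside 3.8% and 2.38% of all genes, and the lower one is TCF7L1, with a bound under 4-fold. In HN30/DDP 2 of 12 were higher and 0 of 11 lower, beside 8.58% and 3.25%.

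The feedback genes AXIN2 and NKD1, common readouts of β-catenin activity, were dim or low on every array. Neither AXIN2 probe was well above background on any array, and their measured values lay between -7.26 and -5.00, so no fold is given. NKD1 was above background on all, with levels of -4.26 in HN4 and -3.86 in HN4/DDP, and -4.24 in HN30 and -3.95 in HN30/DDP. Its differences of 0.40 (scanner SD 0.32) and 0.29 (scanner SD 0.34) are both less than 2 scanner SDs. Under quantile normalization the HN30 difference was -0.12. The order of its 4 levels is therefore not resolved.

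Of the 16 feedback and target genes 11 were measured on at least 1 array, and LGR5, APCDD1, NKD2, AXIN2 and LEF1 were dim on all 4. Others were bright, with ZNRF3 between 2.78 and 3.21 and CCND1 between 1.72 and 2.07. CCND1 differed by 0.35 in the HN4 pair and -0.25 in the HN30 pair, and SP5 by -0.003 and -0.32. RNF43 differed by 1.94 and 0.23, ASCL2 by 0.65 and 1.90, and TNFRSF19 by -0.17 and 1.44. ZNRF3 gave 0.31 and -0.07, and -0.65 and -0.11 on its second probe. DKK1, itself a target gene, was the only one lower past 2, 1 of 10 in either pair, beside 2.38% of all genes in HN4/DDP and 3.25% in HN30/DDP. By measured signal NOTUM alone counted as higher, 1 of 11 in HN30/DDP, but its bound is under 4-fold, and 0 of 10 were higher in HN4/DDP. The shares of all genes were 8.58% and 3.8%. CD44, a surface receptor and target gene, was lower in both lines, with levels of 6.22 in HN4 and 5.15 in HN4/DDP, and 6.63 in HN30 and 4.92 in HN30/DDP. Its differences were -1.07 and -1.71 on the brightest probe, while a second probe gave 1.86 and 0.73.

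On the list of 12 genes of planar polarity and the calcium branch, PRICKLE2 was named by the rule. It was at -4.62 in HN4 and -3.01 in HN4/DDP, a difference of 1.61, and dim in HN30 and at least 1.2-fold higher in HN30/DDP. By measured signal it counts as higher past 2 in HN30/DDP, 1 of 10, but that bound is far under 4-fold, and 0 of 10 were lower, beside 8.58% and 3.25% of all genes. In HN4/DDP 0 of 11 were higher and 0 of 10 lower, beside 3.8% and 2.38%.

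Taking all lists as 1 set, 115 genes had a probe, 93 were measured above background on 1 or more arrays and 77 on all 4. In HN4/DDP 2 of 87 were higher and 5 of 83 lower by more than 2, which is 2.3% and 6.02%, against the 3.8% and 2.38% of all genes given above. These counts were 0 and 2 with normexp, and 1 and 3 with genes measured on both arrays. In HN30/DDP 14 of 92 were higher and 1 of 80 lower, 15.2% and 1.25%, against 8.58% and 3.25%. Of the 14, 8 were dim in HN30, and the count was 8 with normexp and 6 with genes measured on both arrays. No share over all genes was counted under these alternatives in either pair. Where a dim gene is counted only if its bound is past 4-fold, 10 of 92 were higher and 1 of 80 lower in HN30/DDP, 10.9% and 1.25%, against 5.21% and 2.62% of all genes. By that rule 1 of 87 was higher and 4 of 83 lower in HN4/DDP, 1.15% and 4.82%, against 2.32% and 1.55%. By a threshold of 1, 10 were higher and 18 lower in HN4/DDP, 11.5% and 21.7%, against 9.8% and 9.36% of all genes. In HN30/DDP 25 were higher and 6 lower by it, 27.2% and 7.5%, against 20.3% and 15.7% of all genes. DKK1 was the 1 pathway gene lower past 2 in both lines, no pathway gene was higher past 2 in both, and 2 went opposite ways. Over all genes the counts were 35, 298 and 72. The sets differ in size, with 115 pathway genes and 43317 gene names, of which 93 and 29525 were measured on 1 or more arrays. Nothing is read from pathway counts this small. The lists hold the 10 members, so these counts are not independent of how the members were chosen.

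**Figure D4:**
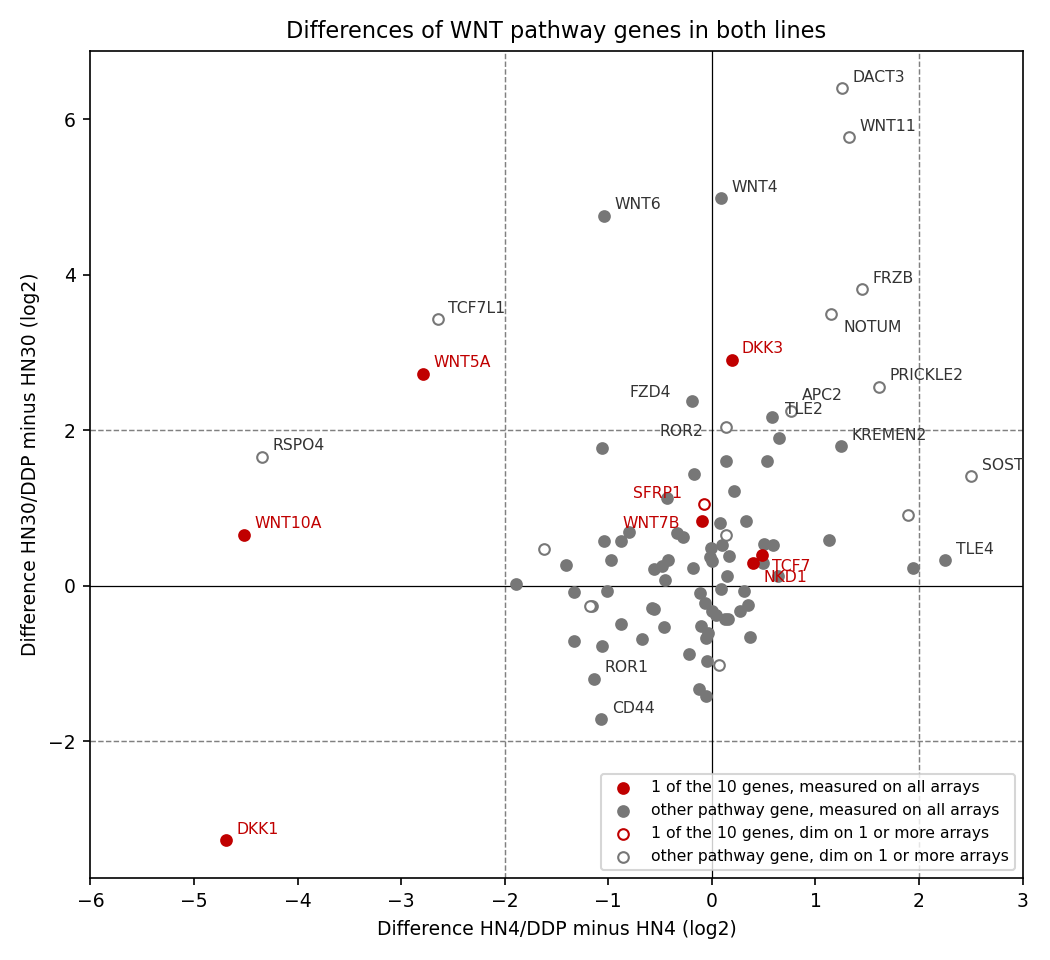
Difference of each WNT pathway gene in the HN4 pair (horizontal axis, log2) and in the HN30 pair (vertical axis, log2), for the 93 genes measured above background on 1 or more arrays. Dashed lines mark 2 and -2, and open points were dim on 1 or more arrays. DKK1 lies alone at the lower left, and WNT5A and TCF7L1 at the upper left.

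The median difference of the pathway genes was -0.05 in the HN4 pair over 90 genes, against -0.08 over all 26856 genes measured in that pair. In the HN30 pair it was 0.34 over 93 genes, against 0.06 over 28330. Median scaling moves the HN30 median of all genes to -0.36 and that of the pathway genes to -0.08. The list medians in the HN30 pair were 1.23 for antagonists, 0.66 for ligands, 0.32 for receptors, -0.07 for R-spondins and their receptors, -0.85 for secretion, 0.02 for transducers, 0.39 for nuclear factors, 0.23 for feedback and target genes and 0.30 for planar polarity. In the HN4 pair they were 0.28, 0.04, -0.33, -0.53, -0.04, 0.04, -0.44, 0.33 and -0.43 in the same order. Some of these medians rest on few genes. The secretion list held 2 in either pair, PORCN and WLS, and the R-spondin list 6. The antagonist list held 8 in the HN30 pair and 6 in the HN4 pair. In the HN4 pair the antagonist median became 0.12 with normexp and 0.06 over genes measured on both arrays. The ligand median became -0.05 with floors for dim signals, and the mean over probes moved secretion to 0.34 and planar polarity to 0.0008. The R-spondin median was -0.05 over genes measured on both arrays. With median scaling the HN30 median was 0.24 for the ligands, but it turned negative for the receptors at -0.10, the transducers at -0.40, the nuclear factors at -0.03, the feedback and target genes at -0.19 and planar polarity at -0.12. Quantile normalization moved these the other way, to 0.58, 0.50, 0.49, 0.38 and 0.73, and the deposited table to 0.51, 0.43, 0.45, 0.32 and 0.65. The HN30 transducer median was also negative over genes measured on both arrays, at -0.16, and that of feedback and target genes with normexp, at -0.01. The HN30 secretion median lay between -1.27 with median scaling and -0.28 with the mean over probes. The R-spondin list turned to 0.24 in that pair with quantile normalization and to 0.18 with the deposited table, but was at -0.49 with median scaling. The HN30 antagonist median rests on genes dim in HN30. Over the antagonists measured on both arrays, which were DKK1, DKK3 and DKK4, it was -0.65.

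Between the parental lines DKK1 was higher in HN30 than in HN4 by 0.57 (scanner SD 0.20), 1.48-fold. WNT10A was lower in HN30, at -1.48, and so was WNT5A, at -1.01, which are 2.78-fold and 2.01-fold. No pathway gene was higher past 2 in HN30, 0 of 80, and 1 of 83, PRICKLE2, counted as lower by measured signal, dim in HN30. The shares over all genes were 0.977% and 1.99%.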

How the data were processed

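RNA of 4 cell samples was hybridised to single-colour Agilent human expression arrays, 1 per condition. The authors deposited the scanner output, whose processed intensity per spot was made by Feature Extraction 10.7.1.1 with background subtraction, detrending within the array and surrogates for very low signals, on hg19. The authors also deposited a series table of log2 values with 58341 rows, in which each array has a median of 4.65 and the sorted values are identical, as after quantile normalization. The sources used here do not say what preceded that step.

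From the intensities, log2 minus the 75th percentile of the 60901 non-control spots was computed. Spots flagged as outliers (140 to 204 per array) were dropped, replicate spots were averaged per probe, and a gene was represented by the probe with the highest mean. A probe counted as well above background when most of its spots did. A gene was called higher past a threshold if the resistant array showed it well above background, and lower if the parental array did, and a count of genes whose bound also passes 4-fold was added after the results were seen. Bounds for dim genes used the higher of the dim signal and the lowest level well above background, -4.76 in HN4 and -4.99 in HN4/DDP, and -4.63 in HN30 and -4.94 in HN30/DDP. Pathway genes other than the members were named past 1 in the same direction in both lines or past 2 in 1, together with the 5 genes most like DKK1 and the genes within 2 Mb of it. Genes named outside this rule were chosen after their values were seen, as was the choice of promoters. They are CTNNB1, LRP6, CKAP4, PORCN, WLS, VANGL2, DKK4, CCND1, ZNRF3, SP5, RNF43, ASCL2, TNFRSF19 and those listed as dim. Of 77 named genes and markers, 60 matched RefSeq (GRCh38.p14) by accession, 1 of them under another symbol.

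The leukocyte marker list is not reported here. The members and lists were chosen with earlier results of these data known. No test was run, since each condition has 1 array. Alternatives were normexp correction with an offset of 50 (limma 3.58.1), quantile and median scaling, a pseudocount of 16, floors for dim signals, genes measured on both arrays, the mean over probes, the deposited table and a threshold of 1. The counting was tested on simulated data. Python 3.11.15, numpy 2.4.6 and pandas 2.3.3 were used.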

Additional observations from a re-analysis of the deposited data

Results flagged for a closer look

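The lines went opposite ways, past 1 (log2) by measured signal with the background condition met, in 5 of the 115 pathway genes. WNT5A was at -2.79 in the HN4 pair and 2.73 in the HN30 pair. TCF7L1 had raw values of -2.65 and 3.43, but it was dim in HN4/DDP and HN30, so it is only bounded, at least 3.55-fold lower and at least 9.12-fold higher. RSPO4 had raw values of -4.34 and 1.66, but it was dim in HN4/DDP, so the first is only bounded, at least 4.12-fold lower. WNT6 was at -1.04 and 4.76, and VANGL2, a planar polarity gene, at -1.06 and 1.78. Over all 43317 gene names 547 went opposite ways by this rule. Whether the lines truly differ was not tested, as each pair holds 1 array per condition.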

How the results depend on the processing

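DKK1, with 1 probe above background on all arrays, could be changed by 5 of the 8 alternatives. Under these it stayed lower in both pairs, between -4.65 and -4.29 in the HN4 pair and between -3.69 and -2.98 in the HN30 pair. The values that moved by more than the scanner SD were -4.29 in HN4 with normexp, and in HN30 -2.98 with quantile normalization, -3.69 with median scaling and -3.02 with the deposited table. No member past 2 changed sign. DKK3, WNT5A and WNT10A also kept their signs in both pairs, while SFRP1, AXIN2, NKD1, LEF1 and TCF7 changed sign in the HN30 pair under 1 or more alternatives, and AXIN2 also in the HN4 pair. Of 155 recomputed member differences 128 stayed within 1 scanner SD, some of them unchanged by construction.

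The count of pathway genes higher in HN4/DDP, 2, became 0 with normexp and 1 with the pseudocount, with the floor for dim signals or with genes measured on both arrays. The count lower there, 5, became 2 with normexp and 3 with genes measured on both arrays. In HN30/DDP the 14 higher became 8 with normexp, 9 with the pseudocount and 6 with genes measured on both arrays, and the 1 lower became 2 with median scaling. No share over all genes was counted under these alternatives, so whether all genes moved alike was not tested. A threshold of 1 gave 10 higher and 18 lower in HN4/DDP, 11.5% and 21.7%, beside 9.8% and 9.36% of all genes. In HN30/DDP it gave 25 higher and 6 lower, 27.2% and 7.5%, beside 20.3% and 15.7%. The pathway median in the HN30 pair, 0.34, was -0.084 with median scaling. That scaling also moved the median of all genes in this pair, from 0.06 to -0.36. Genes measured on both arrays are fewer by construction, and the cause of the other changes was not tested. Each difference was taken within a line, and no further paired fit was run. Signal near background limits SFRP1, AXIN2, LEF1 and NKD1.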

Other observations

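Of the 3 keratins on the squamous marker list, KRT14 and KRT17 did not follow DKK1 as KRT5 did. KRT14 had levels of -2.68 in HN4 and -0.35 in HN4/DDP, and 0.17 in HN30 and 0.39 in HN30/DDP. KRT17 had -1.78, 1.51, 0.54 and 0.73 in that order. In the HN4 pair both were higher in the resistant cells, by 2.33 and 3.29, while KRT5 differed there by -4.05. In the HN30 pair KRT14 and KRT17 differed by 0.22 and 0.19, and KRT5 by -1.93. No test was run on these values.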
